A study of Mus musculus with 72 samples.

Results

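The epidermal differentiation complex is a cluster of genes on mouse chromosome 3 that encode proteins of the outer, cornified layers of skin. Its members were taken here as the protein-coding genes of chromosome 3 with a symbol of the Lce, Sprr or S100a families followed by a digit, plus Lor, Flg, Flg2, Hrnr, Rptn, Ivl, Crnn, Tchh, Tchhl1 and Crct1, where the total over 72 libraries reached 100 reads. Of 63 symbols that fit these names, 38 met the rule, 22 had fewer than 100 reads and 3 were not listed as protein coding, among 46078 genes in all. The 38 genes lie between positions 90511034 and 93564643, a stretch of 3.05 Mb. They comprise 12 S100A genes, 10 genes of the late cornified envelope class with Crct1, 9 small proline-rich genes, 5 fused-type S100 genes and the pair Lor and Ivl. Just inside the limit were Lce1f with 108 reads and Sprr2k with 131, and just outside were Lce1e with 88 and Sprr2j-ps with 80. Flg held 30 reads and Tchhl1 40 reads over all libraries, so the filaggrin gene itself is not among the members.

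The libraries are RNA-seq of interfollicular epidermis, the epidermis between hair follicles, from back skin of female C57BL/6 mice aged 8 weeks under a light:dark cycle. KO mice are Bmal1-stopFL, in which a removable stop cassette silences Bmal1, the clock transcription factor that the gene Arntl encodes. RE mice are Bmal1-stopFL/K14-Cre, in which Cre driven by the keratin 14 promoter of basal keratinocytes removes the cassette, and K14-Cre mice are the wild type (WT). Each of the 3 genotypes has 4 mice at each of 6 time points, which gives 24 libraries per genotype. The RE titles also carry the letters KO. The cassette was released only in cells with keratin 14 promoter activity now or in their ancestry. The clock of RE mice is thus limited to these cells, which need not all be epidermal. The labels give no clock hours for the time points.

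Keratinocytes divide in the basal layer and then move outward through the spinous and granular layers, where they switch on the genes of this complex. Involucrin is laid down first under the cell membrane, loricrin and the small proline-rich (SPRR) and late cornified envelope (LCE) proteins are then cross-linked to it by transglutaminases, and the fused-type S100 proteins bind keratin filaments in the granular layer and in hair. The S100A genes encode small calcium-binding proteins, several of which bind annexins at membranes or act as alarm signals in inflamed skin.

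Reads in genes ran from 2.96e+07 to 4.95e+07 per library and genes with at least 1 read from 20244 to 23582. Arntl was lower in KO than in WT by a log2 difference of -1.09 ± 0.08 (SE), and RE and WT differed by 0.09 ± 0.08 (SE). The ratio of mt-Co1 to mt-Nd1 reads divided the libraries into 2 sets that a gap of 1.34 on the log2 scale separates. The first set holds time points 1 to 3 of KO and RE and 1 to 4 of WT (40 libraries), and the second the other 32. Within a genotype the time point fixes the set, so the 2 cannot be told apart across the sets, and the groups KO and RE share a set at time point 4 that WT does not. The basal keratin gene Krt14 was 343 CPM in RE replicate 3 and 274 CPM in WT replicate 4 of time point 5, against at least 2514 CPM in the other 70 libraries. At time point 3, 3 libraries went against their labels in Nr1d1, a clock gene that BMAL1 activates. The library labelled KO replicate 1 had 253 CPM, against 2.70 to 3.81 CPM in the other 3 KO libraries. The library labelled RE replicate 2 had 266 CPM, against 126 to 173 CPM in the other 3 RE libraries, and that labelled WT replicate 2 had 84.8 CPM, against 286 to 345 CPM in the other 3 WT libraries. These 5 libraries are in doubt, and the counts without them are given beside those with all libraries. CPM (counts per 1e+06 reads) use TMM-scaled library sizes, and in tissue RNA fewer cells of a type and less RNA per cell cannot be told apart. Reads of overlapping or near-identical genes cannot be assigned with certainty: this concerns the Sprr2 and Lce1 genes, Sprr2a1 (which overlaps Sprr2a2), S100a3 (whose gene model spans S100a2) and S100a11 (which has a pseudogene, S100a11-ps, with 40503 reads).

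The members covered a wide range of levels. Per kilobase of exon, the mean over all libraries was highest for 4 S100A genes: S100a14, an epithelial S100 protein, at 275 CPM per kb, S100a10, the partner of annexin A2, at 223, S100a16 at 136 and S100a6 at 98.2 CPM per kb. Among the SPRR genes, whose products bridge other envelope proteins, Sprr1a led with 97.1 CPM per kb, followed by Sprr4 with 15.3 and Sprr2a1 with 10.4. Ivl, the gene of involucrin, stood at 51.5 CPM per kb and Lor, the gene of loricrin, at 5.66.

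Among the fused-type S100 genes, Flg2 (a filaggrin-like protein) reached 9.88 CPM per kb, Hrnr (hornerin, also filaggrin-like) 7.14 and Tchh (trichohyalin, a filament-binding protein of hair sheath and medulla) 2.28. The leading LCE-class genes were Crct1 with 4.26 CPM per kb, Lce1a1 with 3.55 and Lce1m with 3.40. At the low end, S100a8 and S100a9, the subunits of calprotectin, had medians of 0.137 and 0.156 CPM in KO, 0.191 and 0.190 in RE and 0.118 and 0.123 in WT. Of 12 neutrophil markers found in the files, 6 (Csf3r, Elane, Ly6g, Mpo, Ngp and Retnlg) had no reads in most libraries. Sprr2e had no reads in 48 of 72 libraries and Sprr2k in 36. The filter on low counts removed Sprr2k, Lce1d and Lce1f and left 35 members for testing, among 18515 genes tested.

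**Figure D1:**
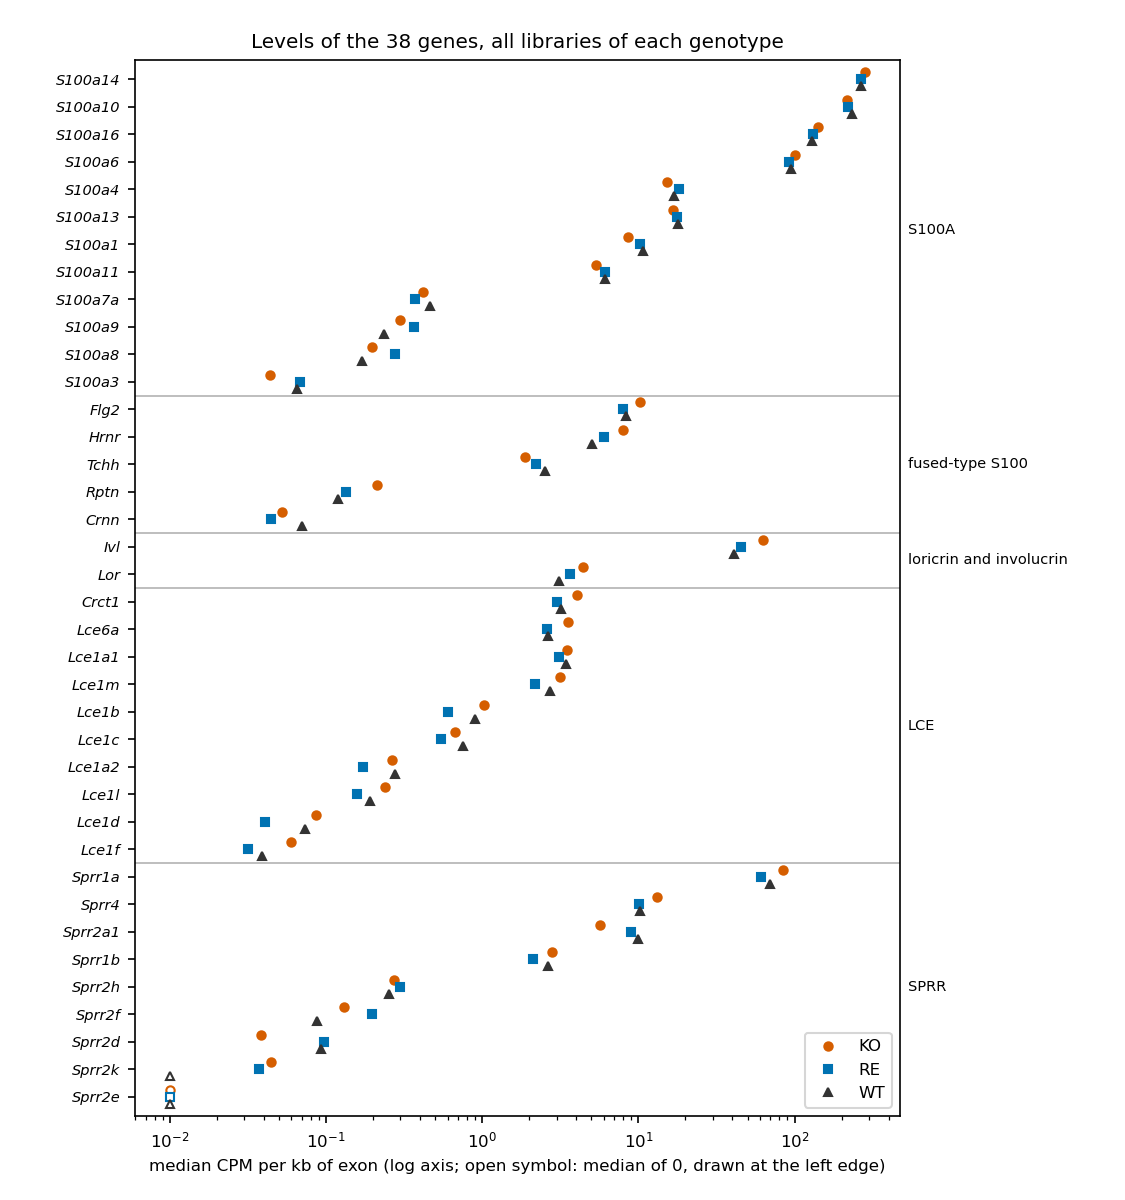
Median level of the 38 genes over the 24 libraries of each genotype, in CPM per kb of exon on a log axis, in 5 classes; open symbols mark a median of 0. The S100A class spans the scale from S100a14 down to S100a3, and the 3 genotypes lie close together for most genes.

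The promoters of 6 members on which the later comparisons turn are shown so that their motif matches can be compared. The 250 bases before the transcription start, from RefSeq on GRCm38.p6, read 5′ to 3′ on the strand of the gene. Capitals mark matches to TGANTCA, the AP-1 motif, and to TATAAA, the TATA box; in Lce6a the match is on the opposite strand and reads TTTATA.
Lor: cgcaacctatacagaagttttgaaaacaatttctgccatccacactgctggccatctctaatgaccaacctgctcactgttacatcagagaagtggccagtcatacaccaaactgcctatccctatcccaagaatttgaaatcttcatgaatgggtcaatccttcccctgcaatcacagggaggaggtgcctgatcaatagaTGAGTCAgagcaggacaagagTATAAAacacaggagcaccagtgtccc
Ivl: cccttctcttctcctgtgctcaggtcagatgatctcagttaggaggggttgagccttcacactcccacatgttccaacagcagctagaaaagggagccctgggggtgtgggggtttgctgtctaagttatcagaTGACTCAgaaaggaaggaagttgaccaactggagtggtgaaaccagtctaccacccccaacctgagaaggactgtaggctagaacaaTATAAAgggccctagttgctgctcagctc
Hrnr: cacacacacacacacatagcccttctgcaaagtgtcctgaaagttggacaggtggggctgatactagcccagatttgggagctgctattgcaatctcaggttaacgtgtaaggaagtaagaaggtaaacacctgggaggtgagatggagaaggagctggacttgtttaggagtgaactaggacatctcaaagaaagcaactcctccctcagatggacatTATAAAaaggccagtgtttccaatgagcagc
Sprr1b: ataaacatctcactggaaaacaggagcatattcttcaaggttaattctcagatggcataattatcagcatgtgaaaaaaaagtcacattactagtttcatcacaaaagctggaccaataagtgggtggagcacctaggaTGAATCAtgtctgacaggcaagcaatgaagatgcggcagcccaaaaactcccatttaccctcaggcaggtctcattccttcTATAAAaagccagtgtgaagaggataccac
Sprr2d: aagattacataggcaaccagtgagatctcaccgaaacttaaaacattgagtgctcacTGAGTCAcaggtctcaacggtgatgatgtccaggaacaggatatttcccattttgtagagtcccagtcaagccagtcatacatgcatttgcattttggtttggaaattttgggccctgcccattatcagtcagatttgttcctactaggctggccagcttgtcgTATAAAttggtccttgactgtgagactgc
Lce6a: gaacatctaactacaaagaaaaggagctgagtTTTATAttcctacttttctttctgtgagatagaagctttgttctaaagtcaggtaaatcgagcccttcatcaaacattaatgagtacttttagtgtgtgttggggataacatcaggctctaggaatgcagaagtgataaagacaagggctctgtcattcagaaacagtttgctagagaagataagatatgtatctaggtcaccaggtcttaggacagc

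These windows belong to Lor (ENSMUSG00000043165; window chr3:92083143-92083392 on the minus strand), Ivl (ENSMUSG00000049128; chr3:92573736-92573985 on the minus strand), Hrnr (ENSMUSG00000041991; chr3:93319499-93319748 on the plus strand), Sprr1b (ENSMUSG00000048455; chr3:92438780-92439029 on the minus strand), Sprr2d (ENSMUSG00000042212; chr3:92338890-92339139 on the plus strand) and Lce6a (ENSMUSG00000086848; chr3:92621661-92621910 on the minus strand). In Lor the AP-1 match starts 48 bases and the TATA match 27 bases before the start site. The TATA matches of Ivl, Hrnr, Sprr1b and Sprr2d start 29, 31, 30 and 29 bases before it, and the single match of Lce6a lies 218 bases before it. The AP-1 matches of Ivl, Sprr1b and Sprr2d start 116, 111 and 193 bases before the start site, and Hrnr and Lce6a have none in this window.

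Of the 38 members, 34 were matched to a RefSeq promoter, with 38 promoter windows between them. On either strand, TGANTCA was found in 36.8% of these windows and in 6.75% of all 32851 windows of the same length. TATAAA was found in 47.4% of the members' windows and in 12.4% of all. CACGTG, the E-box that the BMAL1 heterodimer binds, was found in 2.63% of the members' windows, that of S100a11 alone, and in 6.02% of all. The AP-1 letters occurred in 14 members, of which 7 are SPRR genes (Sprr1a, Sprr1b, Sprr2d, Sprr2e, Sprr2f, Sprr2h and Sprr2k), besides Lor, Ivl, Crnn, Flg2, Rptn, S100a11 and S100a16. The Sprr2 genes are close paralogs, so their windows are not independent, and a match of letters is a description, not a binding site.

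The first question of the design is which genes change over the day. A cosine with a period of 6 time points was fitted for each genotype, and its log2 range is the fitted difference between peak and trough. Of the 35 tested members, 8 changed over the time points in KO, 9 in RE and 13 in WT (edgeR quasi-likelihood F-test, adjusted p under 0.05 over all genes). Over all genes tested, 7.26% were called in KO, 12.7% in RE and 33.3% in WT. The median fitted range of the members was 0.70 in KO, 1.01 in RE and 0.82 in WT, against 0.22, 0.27 and 0.35 over all genes. This range cannot fall below 0 and some members have few reads, so the medians alone do not show more rhythm. The 6 members called in all 3 genotypes were Lor, Sprr1b, Sprr2d, Sprr2e, Hrnr and S100a11, and 5.33% of all genes were called in all 3. With limma-voom, S100a11 was the single member called in all 3. That tool did not call Sprr2d and Sprr2e in KO, Lor, Sprr1b, Sprr2d and Sprr2e in RE, or Lor and Hrnr in WT.

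Lor had its highest group mean at time point 1 in every genotype. At time points 1 to 6 it averaged 33.6, 5.89, 5.79, 6.83, 8.35 and 11.2 CPM in KO. In RE it averaged 22.5, 4.68, 5.51, 3.16, 13.9 and 7.52 CPM, and in WT 20.5, 4.00, 5.24, 4.61, 12.9 and 5.12 CPM (n = 4 mice per group). All 3 genotypes thus had low loricrin levels at time points 2 and 3, and RE and WT a further high mean at time point 5, where 1 library of each was in doubt. The fitted log2 range was 2.10 ± 0.49 (SE) in KO, 2.10 ± 0.49 (SE) in RE and 1.71 ± 0.49 (SE) in WT, with edgeR adjusted p = 0.0024, 0.0084 and 0.026. With limma-voom the adjusted p of Lor was 0.025 in KO, 0.075 in RE and 0.220 in WT. The fitted peaks fell at 6.64, 6.35 and 6.26 on a scale on which time points 1 and 7 are the same.

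Ivl was called in RE and WT and not in KO. Its group means at time points 1 to 6 were 135, 96.4, 92.3, 126, 126 and 128 CPM in KO. They were 91.1, 69.5, 78.9, 73.2, 159.9 and 97.0 CPM in RE and 85.7, 60.6, 61.3, 59.6, 142 and 98.1 CPM in WT. RE and WT had their highest mean at time point 5, and the 4 KO means at time points 1, 4, 5 and 6 lay close together. The log2 range was 0.50 ± 0.23 (SE) in KO (edgeR adjusted p = 0.452), 0.92 ± 0.23 (SE) in RE (adjusted p = 0.0099) and 1.14 ± 0.23 (SE) in WT (adjusted p = 4.4e-04). A direct edgeR test of the difference in rhythm between KO and WT gave an adjusted p of 0.586 for Ivl, so the genotypes were not shown to differ. Without the 5 libraries in doubt Ivl was not called in RE (adjusted p = 0.062), and it was called in WT (adjusted p = 5.5e-04).

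The widest fitted ranges belonged to SPRR genes. Sprr1b averaged 17.8, 2.66, 1.21, 1.34, 3.34 and 5.46 CPM at time points 1 to 6 in KO. In RE the means were 12.4, 2.05, 1.30, 1.25, 2.32 and 1.82 CPM, and in WT 17.3, 1.71, 1.54, 1.33, 2.36 and 1.66 CPM. In each genotype the mean of time point 1 was the highest by a wide margin. The fitted log2 range was 3.68 ± 0.71 (SE) in KO, 2.84 ± 0.71 (SE) in RE and 3.14 ± 0.71 (SE) in WT, with edgeR adjusted p = 2.0e-04, 0.0043 and 4.1e-04. Sprr2d and Sprr2e were called in all 3 genotypes, Sprr2h in KO and WT, and Sprr1a and Sprr2a1 in WT. Sprr2d and Sprr2e rest on 746 and 139 reads over all libraries, most of them at time point 1. For Sprr1a, which is also induced in wounded skin, the log2 range was 1.47 ± 0.46 (SE) in KO (edgeR adjusted p = 0.079), 1.16 ± 0.46 (SE) in RE (adjusted p = 0.139) and 1.66 ± 0.46 (SE) in WT (adjusted p = 0.0069).

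Among the fused-type S100 genes, Hrnr was called in all 3 genotypes and Flg2 in RE. Hrnr averaged 147, 69.9, 67.4, 83.8, 105 and 119 CPM at time points 1 to 6 in KO. In RE the means were 76.4, 58.3, 52.8, 53.2, 138 and 109.8 CPM, and in WT 62.8, 42.8, 55.4, 40.5, 89.2 and 67.2 CPM. Time points 5 and 6 were high in each genotype, and in KO time point 1 had the highest mean. A direct edgeR test of the change at time point 1 between KO and WT gave an adjusted p of 0.758 for Hrnr. The log2 range of Hrnr was 1.03 ± 0.27 (SE) in KO, 1.37 ± 0.27 (SE) in RE and 0.78 ± 0.27 (SE) in WT (edgeR adjusted p = 0.023, 2.9e-04 and 0.046). With the set of libraries as a term in the model, Hrnr was called in RE (adjusted p = 0.046) and not in KO (0.063) or WT (0.259). Without the 5 libraries in doubt Hrnr was not called in WT either (adjusted p = 0.079). Flg2 in RE had a log2 range of 1.16 ± 0.30 (SE) with edgeR adjusted p = 0.016.

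The LCE class gave few calls. Crct1 was called in KO with a log2 range of 1.39 ± 0.41 (SE) (edgeR adjusted p = 0.047) and Lce1b in RE with 1.48 ± 0.42 (SE) (adjusted p = 0.032). Of the S100A genes, S100a11 was called in all 3 genotypes, and S100a1, S100a4 and S100a7a in WT. S100a11, which binds annexin A1, behaved unlike the envelope genes. Its means at time points 1 to 6 were 3.23, 3.56, 3.82, 1.52, 1.35 and 2.04 CPM in KO. They were 3.70, 3.90, 3.74, 2.32, 1.17 and 1.72 CPM in RE and 4.02, 3.76, 3.63, 3.23, 1.31 and 1.89 CPM in WT. The low means began at time point 4 in KO and RE and at time point 5 in WT, which are the time points at which the second set of libraries begins. With the set as a term the S100a11 rhythm was not called in KO (adjusted p = 0.579), RE (0.304) or WT (0.115).

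The 4 most abundant S100A genes were not called in any genotype. S100a14 had fitted log2 ranges of 0.03 ± 0.07 (SE) in KO, 0.03 ± 0.07 (SE) in RE and 0.03 ± 0.07 (SE) in WT. For S100a10 they were 0.15 ± 0.11 (SE), 0.12 ± 0.11 (SE) and 0.27 ± 0.11 (SE), for S100a16 0.03 ± 0.10 (SE), 0.03 ± 0.10 (SE) and 0.03 ± 0.10 (SE), and for S100a6, or calcyclin, 0.18 ± 0.20 (SE), 0.17 ± 0.20 (SE) and 0.35 ± 0.20 (SE). S100a4 had a log2 range of 0.82 ± 0.23 (SE) in WT (edgeR adjusted p = 0.012) and S100a7a, a relative of human psoriasin, one of 0.88 ± 0.26 (SE) (adjusted p = 0.022).

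**Figure D2:**
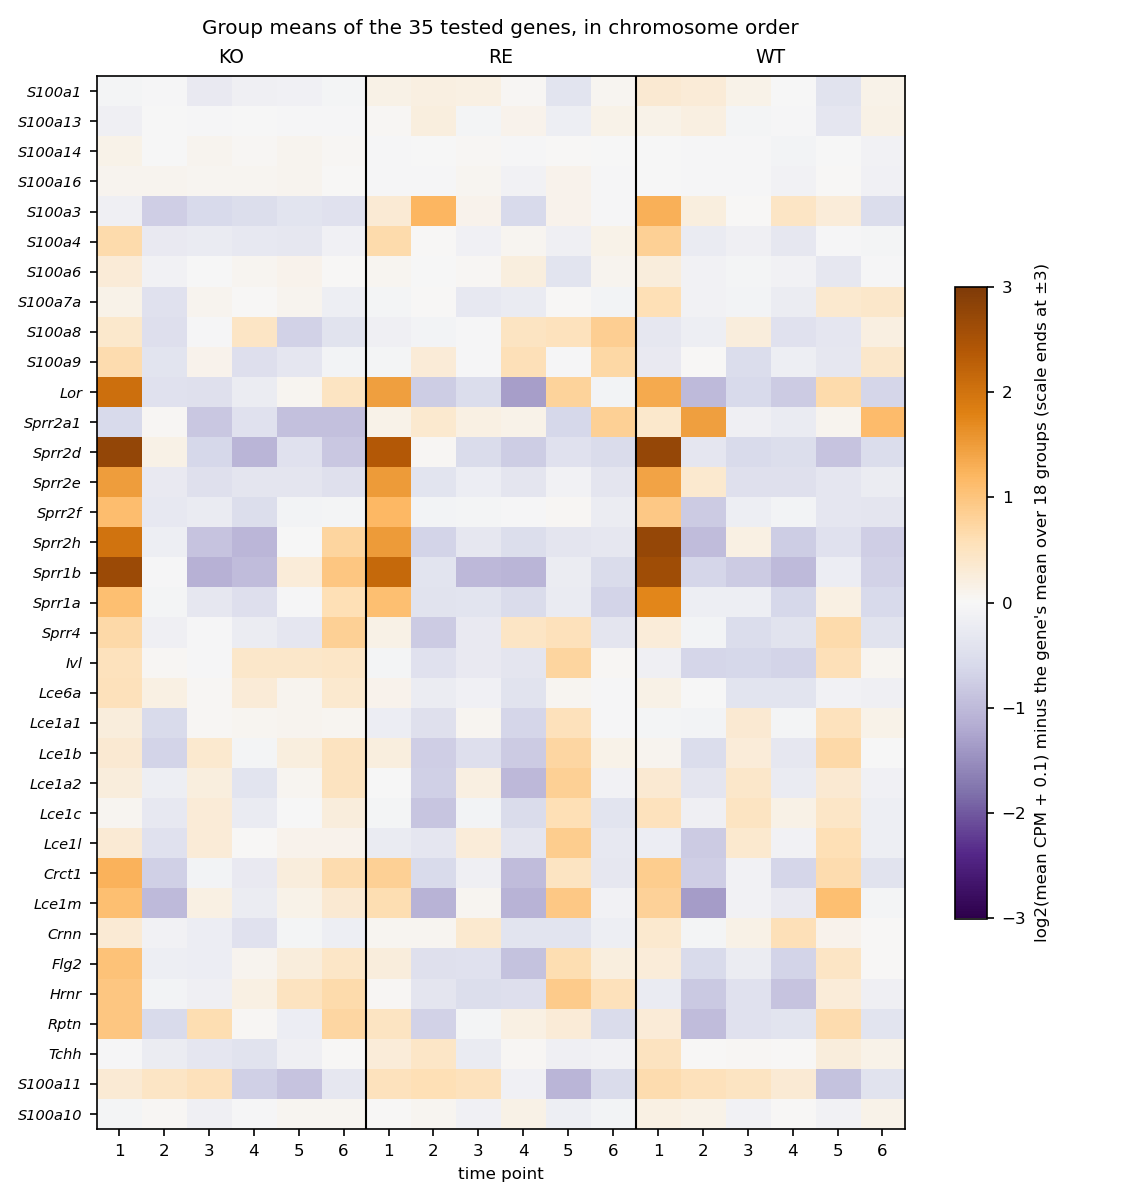
Group means of the 35 tested genes in chromosome order, as log2(mean CPM + 0.1) minus the mean of that value over the 18 groups, for time points 1 to 6 of KO, RE and WT (4 libraries per group). Lor, most SPRR genes and Crct1 are darkest at time point 1 in all 3 genotypes, and S100a11 is lower in the late time points.

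When the model also held the set, 7 members were called in KO, 8 in RE and 14 in WT, against 2.05%, 2.07% and 25.0% of all genes, and 5 were called in all 3 (Sprr2d, Sprr1b, Lor, Sprr2e and Crct1). Without the 5 libraries in doubt the counts were 10 in KO, 10 in RE and 14 in WT, against 8.07%, 13.0% and 34.4% of all genes. Without time point 1, 3 members were called in KO, 6 in RE and 6 in WT, against 5.83%, 8.31% and 18.2% of all genes, and without KO replicate 1 of time point 1 alone the KO count was 5. Of the rhythm differences between genotypes, none was called for a member by edgeR or by limma-voom in any of the 3 pairs, where edgeR called 1.17% of all genes between KO and WT, 0.0108% between RE and WT and 0% between RE and KO. The lowest adjusted p between KO and WT was 0.304, for S100a1, with 2 members at an unadjusted p under 0.05, and there were 0 such members between RE and WT and 0 between RE and KO. Of all 18515 genes, 2371, 1066 and 479 had such a p in these pairs. Tested with time point as a factor and without the 5 libraries in doubt, 1 member, S100a11, was called between KO and WT.

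The high values at time point 1 were then compared directly with the mean of time points 2 and 3, which lie in the same set in every genotype. This comparison was added after the data were seen. At time point 1, 11 members were higher in KO, 8 in RE and 13 in WT, and none was lower (edgeR, adjusted p under 0.05). Over all genes tested, 2.92% were higher and 1.84% lower in KO, 4.53% and 1.32% in RE, and 13.3% and 11.8% in WT. The median log2 difference of the members was 0.70 in KO, 0.30 in RE and 0.49 in WT, and over all genes it lay within 0.02 of 0. The 8 members higher in all 3 genotypes were Lor, Sprr1a, Sprr1b, Sprr2d, Sprr2e, Sprr2h, Crct1 and S100a4, and 1.87% of all genes were higher in all 3. Sprr2e reached the limit of 100 reads only through time point 1, and most reads of Sprr2d fell there. The calls of these 2 genes are thus no independent support for a rise. Without time point 1 the filter on low counts left 32 members to test, against 35 with it. With limma-voom, Lor, Crct1, Sprr2e and S100a4 were called in all 3. Without the libraries of replicate 1, Lor was the single member called in KO and in RE. At an unadjusted p under 0.05, edgeR gave 0, 0 and 0 lower members in KO, RE and WT, and limma-voom called 0 in each. Of all 18515 genes, edgeR gave 1681, 1423 and 3336 lower ones at that p.

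Lor had 65.0, 28.3, 32.6 and 8.34 CPM in the 4 KO mice of time point 1, against 4.80 to 7.66 CPM with a median of 5.53 CPM in the 8 of time points 2 and 3. In RE it had 31.2, 23.0, 30.7 and 4.83 CPM, against 3.87 to 6.94 CPM with a median of 4.36 CPM. In WT it had 17.0, 13.9, 32.2 and 19.0 CPM, against 2.18 to 6.07 CPM with a median of 4.91 CPM. The groups did not overlap in KO and WT, and in RE replicate 4 lay within the range of time points 2 and 3. The log2 difference was 2.52 ± 0.33 (SE) in KO, 2.14 ± 0.33 (SE) in RE and 2.16 ± 0.33 (SE) in WT (edgeR adjusted p = 5.0e-07, 2.2e-05 and 1.7e-06).

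Sprr1b, a cross-bridging envelope precursor, had 38.9, 8.39, 21.8 and 2.00 CPM at time point 1 in KO, against 0.511 to 5.79 CPM with a median of 1.58 CPM at time points 2 and 3. In RE it had 25.9, 18.5, 4.09 and 1.26 CPM, against 0.448 to 2.45 CPM with a median of 1.85 CPM. In WT it had 30.8, 24.0, 7.82 and 6.62 CPM, against 0.329 to 2.84 CPM with a median of 1.73 CPM. All 4 WT values, 3 of 4 KO values and 3 of 4 RE values lay above every value of time points 2 and 3 of their genotype. Replicate 4 was the exception in KO and RE. The log2 difference was 3.31 ± 0.59 (SE) in KO, 2.92 ± 0.59 (SE) in RE and 3.41 ± 0.59 (SE) in WT (edgeR adjusted p = 2.5e-04, 9.0e-04 and 1.3e-05). Sprr1a had log2 differences of 1.27 ± 0.41 (SE) in KO, 1.48 ± 0.41 (SE) in RE and 1.93 ± 0.41 (SE) in WT (edgeR adjusted p = 0.049, 0.016 and 2.4e-04).

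Sprr2d, Sprr2e and Sprr2h were called at time point 1 in all 3 genotypes, on few reads. For Sprr2h, 2 of the 4 libraries in each genotype lay above all values of time points 2 and 3. Sprr2d had 228 reads in the 4 libraries of time point 1 and 36 in the 8 of time points 2 and 3 in KO, 155 and 36 in RE, and 185 and 24 in WT. Sprr2e had 41 and 2 reads in KO, 37 and 4 in RE, and 32 and 11 in WT. At time point 1, 1 of the 4 KO libraries had 0 reads of Sprr2d. For Sprr2e, 1 KO and 1 RE library of that time point had 0 reads. At such counts the fitted fold of Sprr2e depends on the prior count and is not given. In contrast, Sprr2a1 at time point 1 was not called, with log2 differences of -0.20 ± 0.42 (SE) in KO, -0.14 ± 0.42 (SE) in RE and -0.28 ± 0.42 (SE) in WT, and Sprr4 was not called either (0.79 ± 0.49 (SE), 0.71 ± 0.50 (SE) and 0.58 ± 0.50 (SE)).

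Crct1, a cysteine-rich neighbour of the LCE genes, had 12.1, 5.62, 7.16 and 4.46 CPM at time point 1 in KO. At time points 2 and 3 it had 0.965 to 3.99 CPM with a median of 2.46 CPM. In RE it had 8.24, 4.92, 5.78 and 3.07 CPM, against 1.76 to 3.60 CPM with a median of 2.06 CPM, and in WT 6.06, 4.36, 8.94 and 3.39 CPM, against 0.995 to 4.17 CPM with a median of 2.33 CPM. All KO values of time point 1 lay above those of time points 2 and 3, and 1 value each in RE and WT did not. The log2 difference was 1.68 ± 0.32 (SE) in KO, 1.23 ± 0.32 (SE) in RE and 1.33 ± 0.32 (SE) in WT (edgeR adjusted p = 5.9e-04, 0.01 and 0.001). Its neighbour Lce1m, a late envelope precursor, was higher in KO (1.54 ± 0.42 (SE), adjusted p = 0.019) and WT (1.60 ± 0.43 (SE), adjusted p = 0.0033), and in RE the difference was 1.17 ± 0.43 (SE) (adjusted p = 0.086). The other 6 tested LCE genes were not called in any genotype.

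S100a4, a calcium-binding protein also made by immune cells and fibroblasts, was the S100A gene called in all 3 genotypes. It had 20.7, 19.1, 20.7 and 7.58 CPM at time point 1 in KO, against 5.91 to 11.2 CPM with a median of 8.85 CPM at time points 2 and 3. In RE it had 20.2, 17.7, 22.1 and 8.32 CPM, against 6.74 to 13.0 CPM with a median of 10.3 CPM, and in WT 17.8, 18.8, 18.9 and 20.1 CPM, against 6.76 to 12.4 CPM with a median of 8.86 CPM. Replicate 4 of KO and of RE again lay within the range of time points 2 and 3, and no WT value did. The log2 difference was 0.94 ± 0.20 (SE) in KO, 0.74 ± 0.20 (SE) in RE and 1.03 ± 0.20 (SE) in WT (edgeR adjusted p = 0.0023, 0.015 and 1.0e-04). Hrnr and Flg2 were called in KO, at 1.10 ± 0.26 (SE) and 1.23 ± 0.28 (SE) (adjusted p = 0.0057 and 0.0035). In WT, Sprr2f, S100a3, S100a7a and Tchh were also called, and none of the 4 was called without the libraries of replicate 1. S100a3 had 2.64 CPM in WT replicate 1, against 0.485 to 0.679 CPM in the other 3 WT mice of time point 1, and its adjusted p was 0.794 without replicate 1 and 0.057 with limma-voom.

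**Figure D3:**
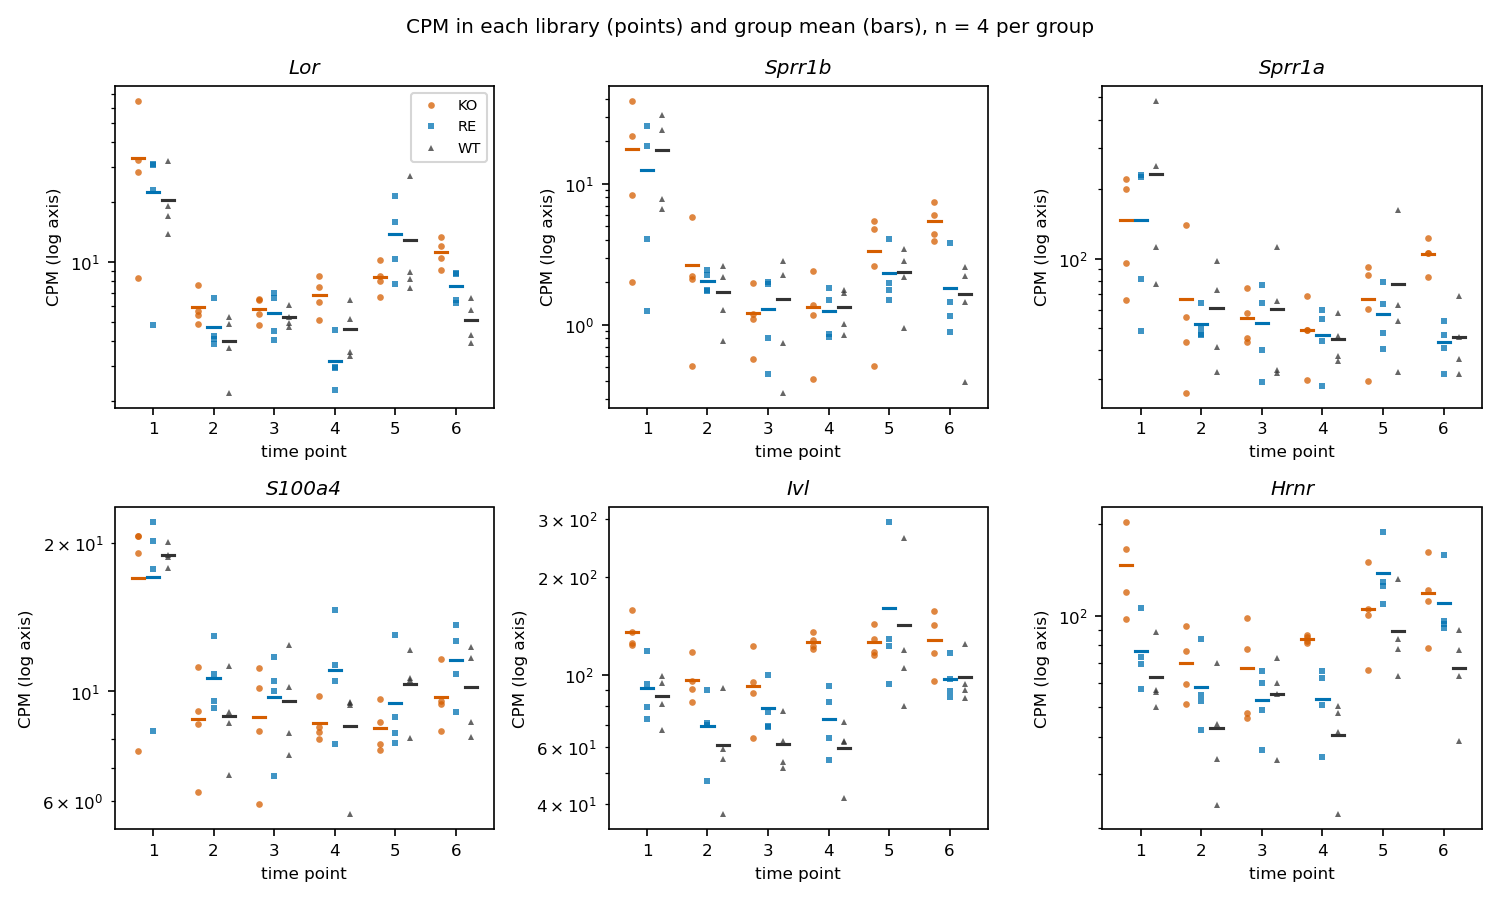
CPM of Lor, Sprr1b, Sprr1a, S100a4, Ivl and Hrnr in each of the 72 libraries (points, log axis) by time point, with KO left, RE in the middle and WT right, and the group mean of 4 libraries as a bar. Lor, Sprr1b, Sprr1a and S100a4 have their highest bar at time point 1 in every genotype, with a low point at time point 1 in KO and RE.

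**Figure D4:**
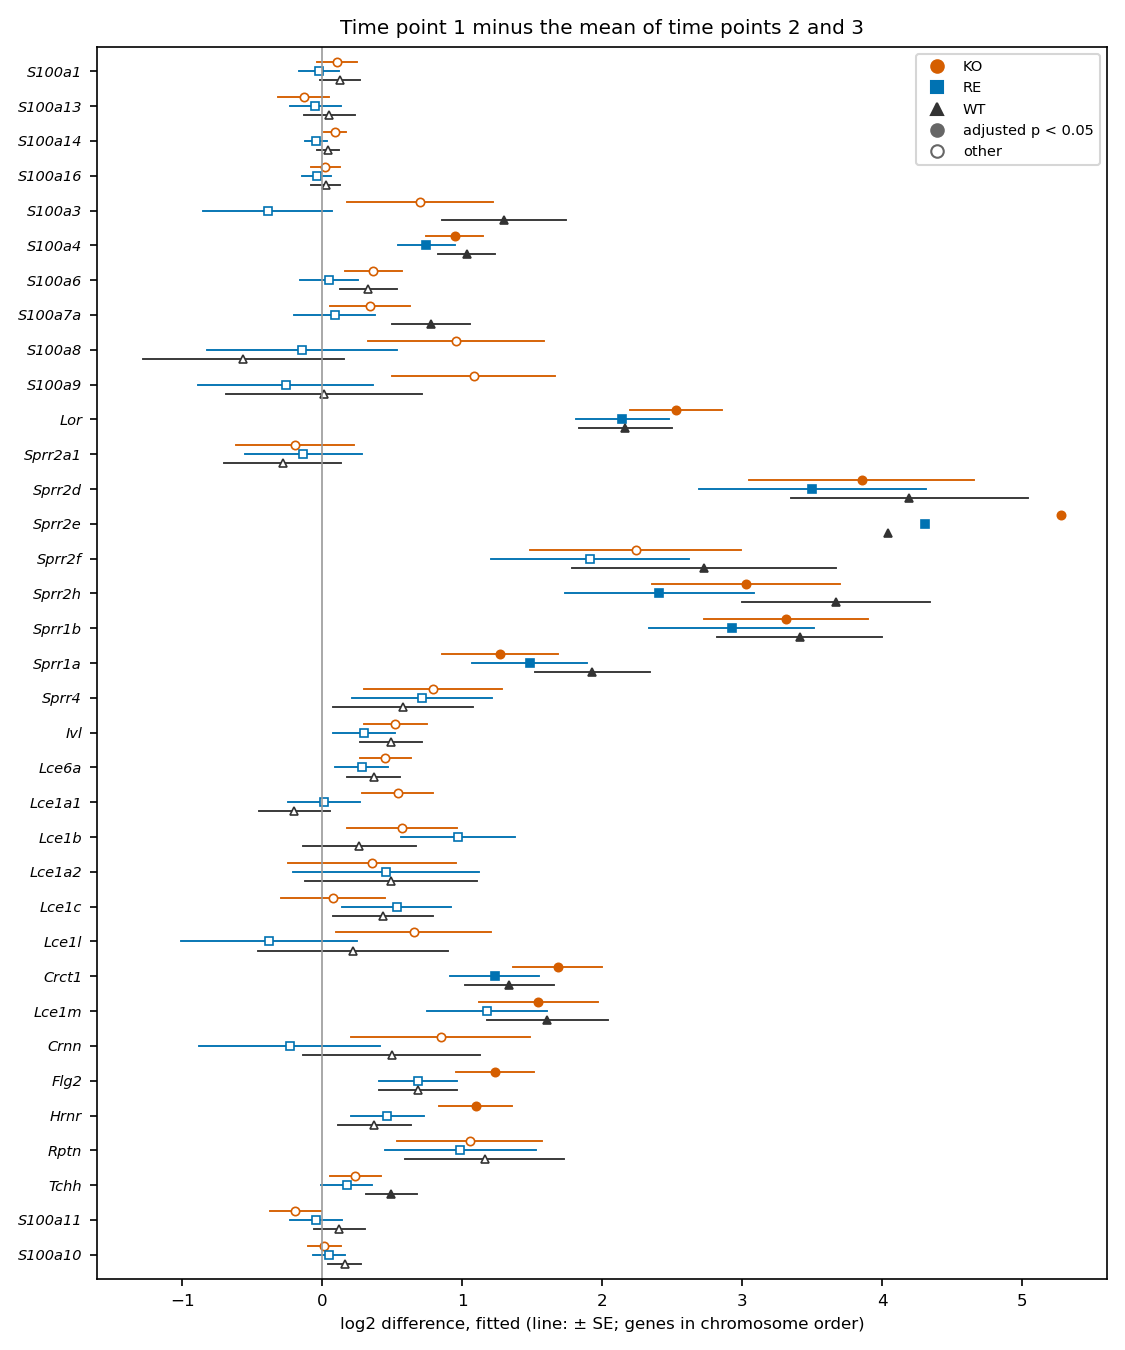
Fitted log2 difference between time point 1 and the mean of time points 2 and 3 for the 35 tested genes in chromosome order, by genotype, with lines of ± SE and filled symbols at an edgeR adjusted p under 0.05; Sprr2e has no SE. The filled symbols all lie right of 0.

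The 2 libraries that stood low, replicate 4 of KO and of RE at time point 1, also stood low in several marker lists. They had the lowest sums of their groups for basal keratinocytes (20703 and 19833 CPM) and fibroblasts (35.2 and 41.0 CPM). The melanocyte sums (22.0 and 23.3 CPM) and clock sums (1710 and 1815 CPM) were lowest there too. Their inner root sheath sums were the highest of their groups (403 and 383 CPM). The spinous, granular-layer and crosslinking sums were also the highest of the group in RE replicate 4 (32824, 6981 and 18036 CPM). In KO replicate 4 these 3 sums lay within the range of the other KO libraries (33688, 6986 and 19396 CPM). The summed level of 12 markers of Langerhans cells and macrophages, of which none had 0 reads in most libraries, was 152 CPM in KO replicate 4, against 499 to 949 CPM in the other 3 KO mice. It was 157 CPM in RE replicate 4, against 561 to 1058 CPM in the other 3 RE mice. In WT all 4 mice had between 489 and 999 CPM, and time points 2 and 3 had group medians of 298 and 182 CPM in KO, 436 and 236 in RE and 272 and 285 in WT. Of the 12 genes, 2 were higher at time point 1 in KO, 3 in RE and 8 in WT, among them Mfge8 in all 3 (1.72 ± 0.40 (SE), 1.39 ± 0.40 (SE) and 1.67 ± 0.40 (SE)). The part of these or other cells in the rise of S100a4 or of the envelope genes was not tested.

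Markers of stressed keratinocytes also moved with time point 1. Their summed level had a median of 632 CPM at time point 1 in KO, against 377 and 421 at time points 2 and 3. The medians were 517 CPM in RE, against 334 and 367, and 608 CPM in WT, against 389 and 302. Of 10 tested genes of this list, 4 were higher in KO, 3 in RE and 6 in WT, with Slpi, a protease inhibitor, up by 3.88 ± 0.68 (SE), 3.60 ± 0.59 (SE) and 4.56 ± 0.63 (SE). Of the 12 genes of this list in the files, Defb3 and Defb4 had 0 reads in most libraries. The sums ranged over 556 to 698 CPM at time point 1 in KO, 497 to 608 in RE and 527 to 696 in WT. All 8 melanocyte markers were higher at time point 1 in WT, 1 in KO and 1 in RE. The basal gene Krt14 differed by 0.07 ± 0.32 (SE) in KO, -0.16 ± 0.32 in RE and 0.05 ± 0.32 in WT, with none called. The melanocyte sum ranged over 22.0 to 45.0 CPM at time point 1 in KO, 23.3 to 52.4 in RE and 37.7 to 145 in WT. The part of these cells and of stress in the members' values was not tested.

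Some cornification genes outside the complex were also higher at time point 1, and most of those listed were not called. Of 17 granular-layer genes, 5 were higher in KO, 2 in RE and 3 in WT, and none was lower, where 2.92%, 4.53% and 13.3% of all genes were higher. Alox12b, the lipoxygenase that links lipids to the envelope, differed by 1.53 ± 0.23 (SE) in KO, 1.09 ± 0.23 (SE) in RE and 1.24 ± 0.23 (SE) in WT on the log2 scale (edgeR adjusted p = 1.3e-05, 0.0015 and 3.3e-05). Tgm1, the transglutaminase that cross-links the envelope, was higher in KO (0.98 ± 0.24 (SE)) and WT (1.03 ± 0.24 (SE)), and of 14 tested crosslinking and scaffold genes 1 was higher in KO, 0 in RE and 4 in WT. Of 34 differentiation regulators, 3 were higher and 2 lower in KO, 5 and 0 in RE, and 13 and 6 in WT. Prdm1, the gene of the repressor BLIMP1 of the granular layer, had the widest difference of those named, at 2.56 ± 0.48 (SE), 2.68 ± 0.48 (SE) and 3.08 ± 0.48 (SE).

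The time point 1 change was compared between genotypes as well, and edgeR called no member in any pair, and 0.0108% of all genes between KO and WT, 0% between RE and WT and 0% between RE and KO. The lowest adjusted p was 0.736, and limma-voom also called 0. At an unadjusted p under 0.05 there was 1 member between KO and WT (Lce1a1), 1 between RE and WT (S100a3) and 0 between RE and KO. Of all 18515 genes, 1233, 808 and 241 had such a p in these pairs. Single libraries weighed on the counts. Without KO replicate 1 the KO count was 7, without RE replicate 1 the RE count was 1, and without RE replicate 2 it was 4. Without the low replicate 4 the counts were 13 in KO and 10 in RE. Without the 5 libraries in doubt, 12 members were higher in KO, 10 in RE and 16 in WT, against 3.99%, 5.15% and 15.8% of all genes. Taking the highest of the 6 group means of each gene, 10 of the 35 members peaked at time point 1 in all 3 genotypes, which is 28.6%, against 11.7% of all genes tested. Of the 13 tested members with the AP-1 letters in their promoter window, 7 were higher at time point 1 in KO, 6 in RE and 7 in WT, and of the 19 with a window without them 3, 1 and 5 were. Those called with the letters were Lor and SPRR genes, with Flg2 in KO. Of the 16 members with the TATA letters, 9 were higher in KO, 7 in RE and 10 in WT, and of the 16 without 1, 0 and 2 were. The shares of all genes by motif are not given, and a link of either motif to the change was not tested.

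The design also asks how the level of each gene, averaged over the day, differs without a clock and with a clock restored through K14-Cre. Of the 35 members, 4 were higher in KO than in WT (Hrnr, Lce6a, Ivl and S100a14) and 4 were lower (Sprr2a1, S100a3, Tchh and S100a1; edgeR, adjusted p under 0.05). Over all genes, 8.72% were higher and 11.1% lower, so the share of members called was near that of all genes. S100a14 and S100a1 had the highest adjusted p of the 8. Without time point 1 neither was called (adjusted p = 0.121 and 0.122), and neither was called without all libraries of replicate 1, 2 or 3. Over time points of the same set S100a14 was not called either (adjusted p = 0.066). Between RE and WT no member was called in either direction, where 0.292% of all genes were higher and 0.335% lower in RE. At an unadjusted p under 0.05, 2 members were higher and 2 lower in RE, beside 1097 and 1039 of all 18515 genes. DESeq2 also called 0 members. In RE against KO, 2 members were higher (Sprr2a1 and S100a3; 6.79% of all genes) and 2 lower (Lce6a and Ivl; 4.86%). The call of Ivl between RE and KO lay near the threshold, and leaving out any 1 of 28 libraries gave 1 lower member instead of 2. All pairs share libraries, so the comparisons are not independent of each other.

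Among the scaffold proteins, Ivl ranged between 64.0 and 158 CPM with a median of 121 CPM in the 24 KO libraries. The 24 RE libraries ranged between 47.0 and 294 CPM with a median of 87.1 CPM, and the 24 WT libraries between 37.2 and 263 CPM with a median of 78.8 CPM. The ranges overlap, the KO median is the highest, and the highest RE and WT values belong to the libraries low in Krt14. On the log2 scale Ivl differed by 0.52 ± 0.12 (SE) between KO and WT (edgeR adjusted p = 6.9e-04), 0.19 ± 0.12 (SE) between RE and WT (adjusted p = 0.567) and -0.34 ± 0.12 (SE) between RE and KO (adjusted p = 0.049). Lor had a log2 difference of 0.35 ± 0.25 (SE) between KO and WT, which was not called (adjusted p = 0.338).

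Of the fused-type S100 genes, Hrnr ranged between 46.1 and 203 CPM with a median of 89.3 CPM in the 24 KO libraries. The 24 RE libraries ranged between 34.2 and 188 CPM with a median of 67.6 CPM, and the 24 WT libraries between 22.2 and 132 CPM with a median of 56.6 CPM. KO again had the highest median, and the ranges of the genotypes overlap. On the log2 scale Hrnr differed by 0.71 ± 0.13 (SE) between KO and WT (edgeR adjusted p = 5.9e-05), 0.39 ± 0.13 (SE) between RE and WT (adjusted p = 0.177) and -0.32 ± 0.13 (SE) between RE and KO (adjusted p = 0.122). Tchh went the other way. Its medians were 11.0 CPM in KO, 12.8 in RE and 14.7 in WT, with ranges that overlap, and it was lower in KO than in WT by a log2 difference of -0.35 ± 0.09 (SE) (edgeR adjusted p = 0.0027).

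The LCE gene Lce6a, a late envelope precursor, ranged between 1.52 and 4.09 CPM with a median of 2.81 CPM in the 24 KO libraries. The 24 RE libraries ranged between 1.45 and 4.21 CPM with a median of 2.06 CPM, and the 24 WT libraries between 1.36 and 3.61 CPM with a median of 2.11 CPM. The KO median is the highest, and the ranges overlap. On the log2 scale Lce6a differed by 0.42 ± 0.09 (SE) between KO and WT (edgeR adjusted p = 3.8e-04), 0.05 ± 0.09 (SE) between RE and WT (adjusted p = 0.897) and -0.37 ± 0.09 (SE) between RE and KO (adjusted p = 0.0023).

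Sprr2a1, an SPRR gene also known from gut epithelium, ranged between 10.8 and 40.4 CPM with a median of 17.1 CPM in the 24 KO libraries. The 24 RE libraries ranged between 11.0 and 106 CPM with a median of 27.0 CPM, and the 24 WT libraries between 14.0 and 199 CPM with a median of 29.7 CPM. KO libraries lay at the low end, and the upper end in WT reached far above the KO maximum. On the log2 scale Sprr2a1 differed by -1.11 ± 0.21 (SE) between KO and WT (edgeR adjusted p = 9.6e-05), -0.30 ± 0.21 (SE) between RE and WT (adjusted p = 0.641) and 0.81 ± 0.21 (SE) between RE and KO (adjusted p = 0.0063). Its group means in WT were 36.5, 77.9, 25.3, 23.6, 29.5 and 61.2 CPM at time points 1 to 6. The high means of time points 2 and 6 rest on 1 library each, at 199 and 162 CPM, against 22.4 to 46.5 CPM in the others of those groups.

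S100a3, a cysteine-rich protein of the hair cuticle, ranged between 0.127 and 0.622 CPM with a median of 0.249 CPM in the 24 KO libraries. The 24 RE libraries ranged between 0.112 and 2.15 CPM with a median of 0.383 CPM, and the 24 WT libraries between 0.113 and 2.64 CPM with a median of 0.369 CPM. All KO libraries lay below 1 CPM, and the KO median is the lowest. On the log2 scale S100a3 differed by -1.05 ± 0.26 (SE) between KO and WT (edgeR adjusted p = 0.0016), -0.19 ± 0.24 (SE) between RE and WT (adjusted p = 0.821) and 0.86 ± 0.26 (SE) between RE and KO (adjusted p = 0.016). S100a14 had medians of 489 CPM in KO, 463 in RE and 457 in WT, a log2 difference of 0.11 ± 0.04 (SE) between KO and WT (edgeR adjusted p = 0.023). S100a1, best known from striated muscle, differed by -0.21 ± 0.07 (SE) between KO and WT (edgeR adjusted p = 0.023).

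**Figure D5:**
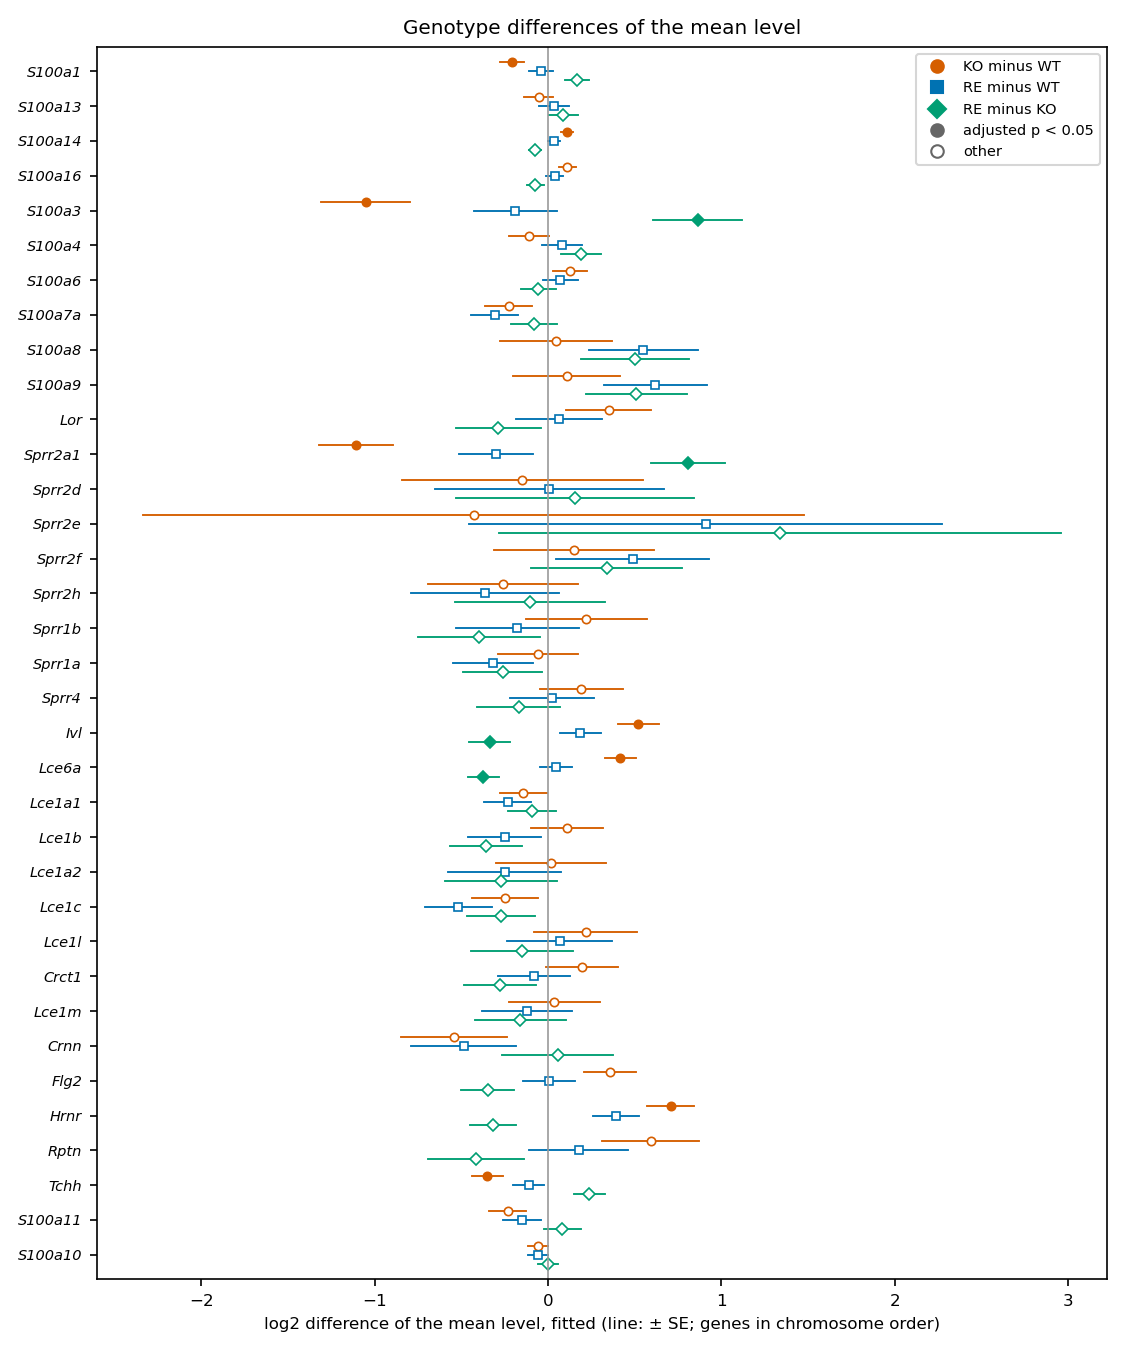
Fitted log2 difference of the mean level between genotypes for the 35 tested genes in chromosome order (KO minus WT, RE minus WT, RE minus KO), with lines of ± SE and filled symbols at an edgeR adjusted p under 0.05. No RE minus WT symbol is filled, and the filled RE minus KO symbols lie on the other side of 0 from the KO minus WT symbols of the same genes.

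Lists outside the complex moved between KO and WT beside these members. Over all genes, 8.72% were higher and 11.1% lower in KO. Of 9 hair inner root sheath genes 6 were lower and 1 higher in KO, of 9 tested hair shaft and cuticle genes 5 were lower and 1 higher, and of 11 sebaceous gland genes 7 were lower. Krt71, an inner root sheath keratin, differed by -2.89 ± 0.55 (SE) and Krt31, a hair cortex keratin, by -1.18 ± 0.26 (SE), in the same direction as S100a3 and Tchh. Of the hair shaft markers, Krt33b, Krt34, Krt81 and Padi3 had 0 reads in most libraries. The summed level of the hair shaft list had medians of 20.2 CPM in KO, 22.2 in RE and 21.8 in WT, with ranges of 15.4 to 24.7, 13.1 to 34.2 and 12.7 to 31.9 CPM. The inner root sheath sum had medians of 366 CPM in KO, 332 in RE and 355 in WT, with ranges of 271 to 469, 235 to 473 and 203 to 499.7 CPM. The median of this sum was thus not lower in KO than in WT, unlike the 6 genes called lower. The part of follicle cells in the values of S100a3 and Tchh was not tested.

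Of 10 spinous-layer genes, 5 were higher in KO than in WT and none lower, against 8.72% and 11.1% of all genes. Krt1 differed by 0.47 ± 0.09 (SE) and Krt10 by 0.32 ± 0.09 (SE) on the log2 scale. Of 10 basal genes, none was called in any pair of genotypes. Of 17 granular-layer genes outside the complex, 3 were higher and 2 lower in KO than in WT. Krt2, the keratin of the upper spinous and granular layers, was lower in KO than in WT by a log2 difference of -1.03 ± 0.15 (SE) and higher in RE than in WT by 1.10 ± 0.14 (SE) (edgeR adjusted p = 1.6e-07 and 2.9e-07). Of 34 differentiation regulators 7 were higher and 0 lower in KO, among them Jun, which encodes an AP-1 subunit (0.41 ± 0.07 (SE)), Klf4, a barrier regulator (0.21 ± 0.06 (SE)), and Grhl3, a factor of barrier formation and wound closure (0.29 ± 0.08 (SE)). Jun was also lower in RE than in KO (-0.34 ± 0.07 (SE)).

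The libraries low in Krt14 bear on these means. In WT replicate 4 of time point 5, 27 of the 38 members lay above all 3 other WT libraries of that time point and 8 below. In RE replicate 3 of time point 5, 21 lay above and 8 below. The share of all genes that did so is not given, and genes outside the complex shifted too. The spinous sum was 61724 CPM in that WT library and 70776 CPM in that RE library, against group medians of 24520 and 29938 CPM. The basal sums were 5859 and 3785 CPM, against group medians of 25764 and 24836 CPM. Ivl stood at 294 CPM in that RE library, against 93.7 to 129 CPM in the other 3, and at 263 CPM in that WT library, against 80.2 to 119 CPM. Without the 5 libraries in doubt, 7 members were higher in KO than in WT (the 4 named above with S100a16, Rptn and Flg2) and the same 4 were lower, against 13.8% and 14.5% of all genes. In that fit 1 was higher (Hrnr) and 1 lower (Lce1c) in RE than in WT, against 1.88% and 1.63% of all genes. In RE against KO 5 were higher (Sprr2a1, Tchh, S100a3, S100a13 and S100a1) and 5 lower (Lce6a, Ivl, Lce1b, S100a16 and Hrnr), against 9.27% and 8.30% of all genes. Leaving out WT replicate 4 of time point 5 alone gave 7 members higher in KO than in WT and 1 higher in RE than in WT.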

How the data were processed

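RNA-seq counts per gene were analysed for 72 libraries of mouse interfollicular epidermis. Per the submitters' processing notes, the authors used Trimmomatic, TopHat2 2.1.1 and HTSeq and the mm10 genome, and the deposited files hold raw read counts per gene. The strand setting of the counting is not given in the sources used here. The 5 summary lines of each file stayed out of library sizes (reads in no feature 12.8 to 20.0%, ambiguous 1.16 to 2.60%). Of 46078 genes, 45143 were matched to names, and the other 935 took at most 0.0944% of reads.

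From these counts, edgeR 4.0.16 in R 4.3.3 fitted quasi-likelihood models with TMM scaling over all 72 libraries after filterByExpr, which left 18515 genes. The rhythm and mean comparisons used a cosine with a period of 6 time points for each genotype. The comparison of time point 1 with time points 2 and 3 used group means and was chosen after seeing the data. P-values were adjusted by Benjamini-Hochberg over all genes, with a threshold of 0.05, and the code was tested on simulated data. DESeq2 1.42.0, limma-voom (limma 3.58.1), other filters, a replicate block, the set as a term and omitted libraries were alternatives, some of them added after seeing the data. The replicates are 4 mice per group. Genes were named by rank: the highest 3 of each class per kilobase, and the lowest p-values among those called in each comparison and list. A few genes outside that rule were picked with their values in view. The members and lists were chosen with earlier results of these data known.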

Additional observations from a re-analysis of the deposited data

Results flagged for a closer look

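For 16 members, 288 groups of 4 libraries were examined for a library far from the other 3, and 30 values stood apart. Chance alone marks about 1 in 20 such groups, a rate that does not hold for values of very few reads, as for Sprr2d. Each value below is in CPM, with the lowest and highest of the other 3 libraries of its group, and no explanation was tested.

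Crct1 had 8.52 in RE replicate 3 of time point 5, above the 2.48 to 3.16 of the others, and 10.7 in WT replicate 4 of time point 5, above the 2.52 to 3.17 of the others. Hrnr had 158 in RE replicate 4 of time point 6, above the 91.2 to 95.9 of the others. Lce1m had 11.2 in KO replicate 1 of time point 1, above the 4.06 to 5.09 of the others. It had 2.54 in KO replicate 4 of time point 2, above the 0.823 to 1.11 of the others. It had 14.8 in RE replicate 3 of time point 5, above the 2.09 to 2.93 of the others. It had 15.9 in WT replicate 4 of time point 5, above the 2.62 to 3.36 of the others. Lce6a had 2.07 in KO replicate 1 of time point 2, below the 2.82 to 2.89 of the others. It had 3.31 in KO replicate 3 of time point 4, above the 2.70 to 2.80 of the others. It had 4.21 in RE replicate 3 of time point 5, above the 1.78 to 1.95 of the others. It had 3.61 in WT replicate 4 of time point 5, above the 1.57 to 1.84 of the others. Lor had 6.54 in RE replicate 3 of time point 2, above the 3.87 to 4.23 of the others, and 27.1 in WT replicate 4 of time point 5, above the 7.36 to 8.88 of the others. S100a11 had 5.03 in WT replicate 1 of time point 1, above the 3.64 to 3.72 of the others. S100a14 had 566 in RE replicate 2 of time point 4, above the 417 to 429 of the others, and 485 in WT replicate 4 of time point 4, above the 429 to 434 of the others. S100a3 had 2.64 in WT replicate 1 of time point 1, above the 0.485 to 0.679 of the others. It had 0.84 in WT replicate 4 of time point 3, above the 0.219 to 0.324 of the others. It had 1.28 in WT replicate 3 of time point 5, above the 0.178 to 0.317 of the others.

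S100a4 had 7.58 in KO replicate 4 of time point 1, below the 19.1 to 20.7 of the others, and 5.63 in WT replicate 3 of time point 4, below the 9.37 to 9.52 of the others. Sprr2a1 had 22.8 in KO replicate 4 of time point 1, above the 17.0 to 17.2 of the others. It had 13.3 in KO replicate 4 of time point 6, below the 15.0 to 15.2 of the others. It had 47.4 in RE replicate 2 of time point 1, above the 24.3 to 26.3 of the others. It had 199 in WT replicate 2 of time point 2, above the 32.2 to 46.5 of the others. It had 162 in WT replicate 4 of time point 6, above the 22.4 to 33.0 of the others. Sprr2d had 0.622 in KO replicate 3 of time point 2, above the 0 to 0.0584 of the others. It had 0 in KO replicate 2 of time point 4, below the 0.0221 to 0.0257 of the others, which themselves rest on very few reads. It had 0.182 in RE replicate 2 of time point 4, above the 0 of each of the others. Tchh had 9.06 in KO replicate 3 of time point 4, below the 10.1 to 10.2 of the others. Of these, the 7 values of Crct1, Lce1m, Lce6a and Lor at time point 5 belong to the libraries low in Krt14.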

How the results depend on the processing

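Of 312 counts of members recomputed under other settings, 273 stayed within 1.5 times the count first given, and of 982 values of called members 815 kept their call, 167 lost it and 0 changed sign. The cause of the changes was not tested unless named. The share of all genes called moves with the setting too. With all libraries 8.72% of genes were higher in KO than in WT, and without the 5 in doubt 13.8% were. Where no share is given here or above, a count describes the setting and is not a result about the members. With limma-voom, 8 members were rhythmic in WT and 5 in RE, 1 was higher in RE than in KO, and 4 were higher at time point 1 in RE. With a mean count of at least 50, which removes the scarce Sprr2 genes from testing, 1 member was higher and 1 lower in RE than in KO, and 8 in WT and 5 in RE were higher at time point 1. With no filter on low counts 1 was lower in RE than in KO. Without time point 1, 6 were rhythmic in WT and 3 in KO, and 1 was lower in RE than in KO. With time point as a factor 18 were rhythmic in RE. With that factor and without the 5 libraries in doubt, 13 were rhythmic in KO and 1 rhythm differed between KO and WT.

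Without the 5 libraries in doubt, 7 members were higher in KO than in WT, 1 was higher and 1 lower in RE than in WT, and 5 were higher and 5 lower in RE than in KO. With the set in the model in addition, 12 were higher in KO than in WT, 2 were higher in RE than in WT, and 5 were higher and 6 lower in RE than in KO. Over time points of the same set and without those 5 libraries, 7 were higher in KO than in WT, and 5 were higher and 9 lower in RE than in KO.

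Leaving out single libraries, or all libraries of 1 replicate number, gave 4 to 11 rhythmic members in KO, 3 to 11 in RE and 9 to 17 in WT. It gave 3 to 7 higher and 3 to 4 lower in KO than in WT, 0 to 1 higher in RE than in WT, and 1 to 3 higher and 0 to 3 lower in RE than in KO. At time point 1 it gave 1 to 13 higher in KO, 1 to 11 in RE and 6 to 16 in WT. Replicate numbers did not pair the libraries on average. Over 612 pairs of libraries with the same number the mean correlation was 0.0258, the lowest -0.859, and 39.7% were over 0.1. With other numbers the mean was -0.00706. These averages do not describe time point 1 alone. There, replicate 4 of WT, KO and RE had the lowest Langerhans cell and macrophage sum of its group (489, 152 and 157 CPM). It also had the lowest SPRR sum (112, 98.0 and 79.9 CPM). A pairing within time point 1 was not tested. With the replicate block, 8 members were rhythmic in KO, 10 in RE and 12 in WT, 4 were higher and 4 lower in KO than in WT, 0 in RE than in WT, and 2 higher and 2 lower in RE than in KO. At time point 1 the block gave 10 in KO, 8 in RE and 13 in WT. Depth limits Sprr2e, Sprr2k, Lce1d and Lce1f, which had 0 reads in 48, 36, 15 and 25 libraries.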
